A study of Mus musculus with 2 samples.

Results

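The genes of mouse chromosome 12 that the array measures were described here by their order along the chromosome. Members were the probe sets whose identifier places them on chromosome 12 and that carry exactly 1 gene symbol, which gave 586 genes of the 19505 genes on the array (675 probe sets of the chromosome less 89 without exactly 1 symbol). As a group, these genes gave higher signals on the array of aged gastric organoids than on that of young gastric organoids. The shift was found along the whole chromosome, from *Rab10*, a GTPase gene of vesicle traffic, at its start to *Macc1*, a gene known from colon cancer, near its end. Against it stood 23 genes whose measured signals were at least 2-fold lower on the aged array, led by the apolipoprotein gene *Apob*, the creatine kinase gene *Ckb*, the growth factor gene *Tgfb3* and the homeobox gene *Nkx2-9*. The chromosome was chosen by the differences between the same 2 arrays, so the shift itself is given as a description.

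Gastric organoids are epithelial cultures grown in a gel from cells of the stomach. The young group came from C57BL/6 mice of 2 to 4 months and the aged group from C57BL/6 mice of more than 18 months, and the labels give no difference between the groups other than age. Both were kept in the same medium, which held Wnt3a, R-Spondin1, Chir99021, Noggin, EGF, FGF10, valproic acid, Y-27632 and SB431542, and 1 µg of total RNA was hybridized to a Clariom S mouse array. There was 1 array per group, and the sources used here do not give the number of mice behind each array. No difference between the arrays could therefore be tested, and age cannot be told apart from any other difference between these 2 cultures.

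Mouse chromosome 12 is acrocentric, with its centromere at 1 end. It carries genes of many unrelated functions, among them the oxygen sensing pair *Hif1a* and *Egln3*, the endoderm regulator *Foxa1*, a cluster of acyl-CoA thioesterases, the imprinted region between *Dlk1* and *Dio3*, the serpin cluster and the immunoglobulin heavy chain locus. In expression data, a region whose genes differ together irrespective of function can be set apart from a pathway whose genes are scattered over the genome, and for this reason the genes were ordered by position here and their functions were examined afterwards. No member was an immunoglobulin heavy chain gene or a miRNA gene, and 564 of the 586 were protein coding.

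Promoter sequences of 8 members are shown because the results turn on these genes. *Apob* and *Nkx2-9* were among the members with the greatest loss on the aged array, *Pax9* is the neighbor of *Nkx2-9* on the chromosome but went the opposite way, *Rab15*, *Acot1* and *Acot2* had the largest differences in the direction of the shift, and *Egln3* and *Hif1a* belong to the same pathway. Each sequence holds 250 bases before and 50 bases after the start of transcription as annotated by RefSeq, on build GRCm38.p6, and is written 5′ to 3′ on the strand of the gene. Capitals mark CG dinucleotides, the sites at which mammalian DNA is methylated. The windows are chr12:7977427-7977726 (plus strand) for *Apob*, chr12:76822475-76822774 (minus strand) for *Rab15*, chr12:56613235-56613534 (minus strand) for *Nkx2-9* and chr12:56695221-56695520 (plus strand) for *Pax9*. Those of the remaining genes are chr12:84009252-84009551 (plus strand) for *Acot1*, chr12:83987611-83987910 (plus strand) for *Acot2*, chr12:54203825-54204124 (minus strand) for *Egln3* and chr12:73907617-73907916 (plus strand) for *Hif1a*. For *Rab15*, the first of 4 listed starts is shown.
Apob: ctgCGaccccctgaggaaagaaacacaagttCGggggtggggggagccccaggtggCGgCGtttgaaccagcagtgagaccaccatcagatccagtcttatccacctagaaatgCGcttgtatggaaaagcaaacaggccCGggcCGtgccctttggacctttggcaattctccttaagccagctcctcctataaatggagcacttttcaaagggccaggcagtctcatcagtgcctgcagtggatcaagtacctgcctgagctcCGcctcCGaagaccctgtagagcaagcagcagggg
Rab15: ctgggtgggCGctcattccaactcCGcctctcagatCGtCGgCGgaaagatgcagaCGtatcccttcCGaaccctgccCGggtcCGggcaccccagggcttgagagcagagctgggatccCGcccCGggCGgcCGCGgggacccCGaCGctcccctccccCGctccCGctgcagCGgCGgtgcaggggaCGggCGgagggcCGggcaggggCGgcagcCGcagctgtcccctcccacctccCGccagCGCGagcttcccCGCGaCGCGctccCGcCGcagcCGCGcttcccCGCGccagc
Nkx2-9: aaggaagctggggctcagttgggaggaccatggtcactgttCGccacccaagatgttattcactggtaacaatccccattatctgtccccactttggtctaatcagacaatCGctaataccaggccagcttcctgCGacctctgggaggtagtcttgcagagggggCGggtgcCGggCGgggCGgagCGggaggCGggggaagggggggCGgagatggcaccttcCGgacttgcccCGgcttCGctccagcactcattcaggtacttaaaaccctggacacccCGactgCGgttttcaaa
Pax9: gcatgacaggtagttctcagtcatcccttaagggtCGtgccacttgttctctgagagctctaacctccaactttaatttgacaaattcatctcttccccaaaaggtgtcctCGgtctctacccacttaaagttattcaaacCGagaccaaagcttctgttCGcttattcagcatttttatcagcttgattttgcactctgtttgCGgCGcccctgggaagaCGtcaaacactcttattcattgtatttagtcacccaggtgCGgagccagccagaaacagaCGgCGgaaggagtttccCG
Acot1: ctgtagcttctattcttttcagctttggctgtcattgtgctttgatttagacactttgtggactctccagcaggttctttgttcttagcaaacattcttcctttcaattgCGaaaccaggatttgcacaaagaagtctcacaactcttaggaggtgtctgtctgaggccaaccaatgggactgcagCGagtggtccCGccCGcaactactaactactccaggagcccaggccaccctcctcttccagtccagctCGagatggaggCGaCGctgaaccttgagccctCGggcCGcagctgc
Acot2: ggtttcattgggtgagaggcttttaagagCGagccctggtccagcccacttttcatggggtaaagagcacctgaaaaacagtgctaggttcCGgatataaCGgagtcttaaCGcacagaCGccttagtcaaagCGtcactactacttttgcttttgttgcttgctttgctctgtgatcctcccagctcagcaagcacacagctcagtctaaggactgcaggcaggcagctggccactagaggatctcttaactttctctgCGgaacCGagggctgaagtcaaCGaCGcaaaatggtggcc
Egln3: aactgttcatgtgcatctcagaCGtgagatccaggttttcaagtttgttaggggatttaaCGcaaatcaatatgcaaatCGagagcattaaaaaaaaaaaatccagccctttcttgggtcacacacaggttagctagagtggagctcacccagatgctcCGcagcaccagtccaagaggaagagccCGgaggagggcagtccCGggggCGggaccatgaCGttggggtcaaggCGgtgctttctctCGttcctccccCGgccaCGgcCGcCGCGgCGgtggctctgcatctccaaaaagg
Hif1a: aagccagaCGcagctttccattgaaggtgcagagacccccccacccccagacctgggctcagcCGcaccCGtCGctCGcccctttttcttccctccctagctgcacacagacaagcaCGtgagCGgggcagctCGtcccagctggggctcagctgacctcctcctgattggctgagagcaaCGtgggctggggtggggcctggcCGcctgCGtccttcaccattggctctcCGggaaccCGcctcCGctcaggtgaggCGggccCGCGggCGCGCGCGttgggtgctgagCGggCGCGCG
The windows differed widely in their CG content. That of *Rab15* held 38 CG dinucleotides and that of *Hif1a* 25, while those of *Apob* and *Acot1* held 9 each, *Acot2* 10, *Pax9* 11, *Nkx2-9* 15 and *Egln3* 16. Methylation was not measured on these arrays.

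Signals are on a log scale from the RMA normalization of the authors, taken as log2, and every difference below is aged minus young. Background was judged from 1412 genes of odorant and vomeronasal receptors, which a stomach epithelium should not express, and their 95th percentile served as the reference of an array. It lay at 5.36 (young) and 5.54 (aged). The differences of the receptor genes themselves had a median of 0.12 and an SD of 0.51, which gives the scatter of dim probe sets. All 8 epithelial markers (such as *Epcam* and *Cdh1*) were above the reference on both arrays, with signals between 10.50 and 17.86 on the young array and between 11.41 and 17.54 on the aged array. Of 7 stomach markers, 5 were above it on the young array and 4 on that of aged organoids. Markers of other cells were mostly under it, with *Laptm5* the 1 leukocyte gene of 6 above it, none of 5 genes of B and plasma cells and none of 5 endothelial genes, and 1 of 6 fibroblast genes on the young array and 2 on that of aged organoids. In RNA of a whole culture, more cells of a kind and more RNA per cell cannot be told apart.

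Of the 586 members, 386 (65.9%) were above the reference on the young array against 387 (66.0%) on the aged array, compared with 57.1% and 54.9% of the genes on chromosomes other than 6 and 12. Chromosome 6 was left out of that comparison group because its genes also gave higher signals on the aged array as a group. In all, 409 members were above the reference on at least 1 array and 364 on both. The 22 members above it on the young array alone and the 23 above it on the aged array alone were nearly balanced, whereas on the chromosomes other than 6 and 12 there were 791 and 394. Nearly the same number of chromosome 12 genes was thus detected on each array.

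The median difference of the 409 members was 0.60, and 317 of them (77.5%) were higher on the aged array. Over all 11558 genes of the array that were above the reference, 50.1% were higher, and 47.5% over the 10597 of them on chromosomes other than 6 and 12. At least 2-fold higher were 117 members (28.6%), against 11.3% of all genes and 9.56% on chromosomes other than 6 and 12. At least 2-fold lower were 23 members (5.62%), against 11.8% of all genes and 12.4% on chromosomes other than 6 and 12. The remaining 269 were less than 2-fold apart. These counts use the measured signals, and where the dimmer array was under the reference, the lower bound on the fold fell short of 2 for 5 of the 23 lower and 6 of the 117 higher members. On the 18 chromosomes other than 6 and 12, the medians lay between −0.10 and 0.03, between 43.5% and 51.3% of genes were higher, between 6.93% and 16.5% were at least 2-fold higher and between 10.3% and 14.8% at least 2-fold lower. Chromosome 12 lay outside each of these ranges. Chromosome 6 did as well, with 79.5% of 552 genes higher, 32.8% at least 2-fold higher and 6.16% at least 2-fold lower.

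**Figure D1:**
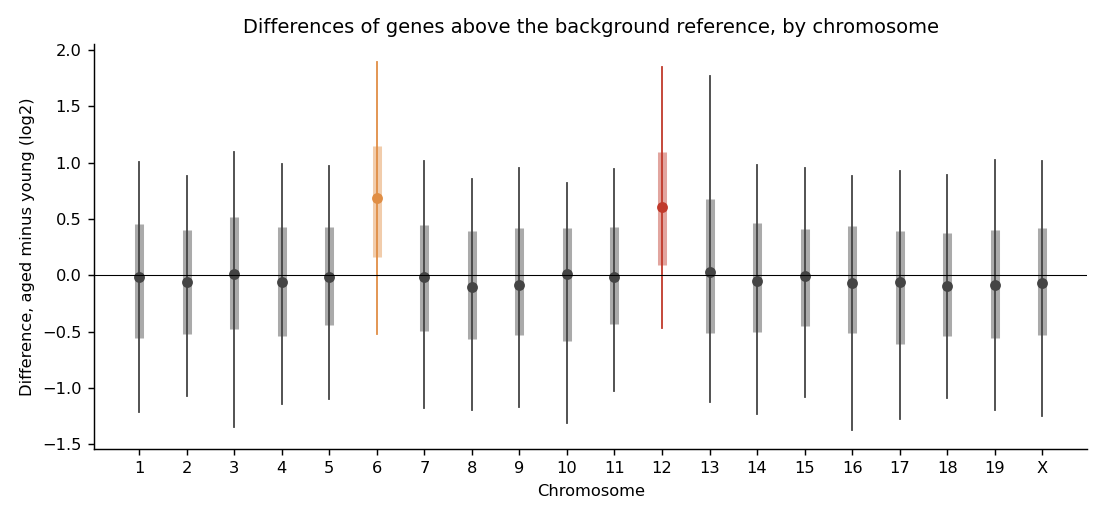
Difference between the arrays (aged minus young, log2) of genes above the background reference, by chromosome. Points are medians, thick bars span the 25th to the 75th percentile and thin lines the 10th to the 90th. Chromosome 12 (median 0.60) and chromosome 6 stand above the other 18, whose medians lie between −0.10 and 0.03.

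Most of the distribution of chromosome 12 lay to the right of that of the other chromosomes, except for its lowest end. The 10th percentile was −0.47 on chromosome 12 and −1.17 on the chromosomes other than 6 and 12, the 25th was 0.09 and −0.51, the 75th was 1.10 and 0.44, and the 90th was 1.85 and 0.98. The gap between the distributions was 0.63 at the 5th percentile, 0.64 at the median, 0.87 at the 90th percentile and 0.69 at the 95th. At the 1st percentile the order was reversed, with −5.29 on chromosome 12 and −4.15 elsewhere, since a few members had very large losses. At the 98th percentile the values were closer, 2.72 and 2.46. From the 25th to the 75th percentile the genes spanned 1.01 on chromosome 12 and 0.95 elsewhere. Members under the reference on both arrays showed no such gap. Those 177 had a median difference of 0.04 (10th to 90th percentile −0.53 to 0.66), and the 7272 dim genes of the other chromosomes had a median of 0.06. A gene that rose above the reference would have left this group, and the remaining signals lay within background. The missing gap therefore says nothing on the shift of dim genes. The signals of the arrays were nearly as close to each other on chromosome 12 as elsewhere, with Pearson's r of 0.892 across its 409 genes and 0.907 across the 10597 genes of chromosomes other than 6 and 12. These are correlations across genes, which are not independent replicates.

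**Figure D2:**
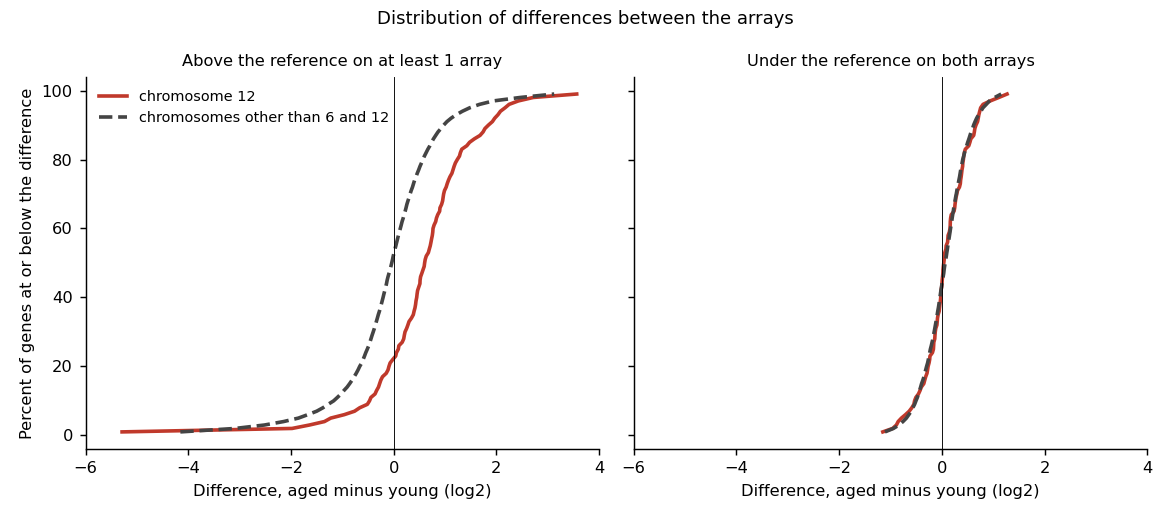
Percentage of genes (vertical axis) at or below each difference, aged minus young on the log2 scale (horizontal axis), for chromosome 12 (solid line) and for chromosomes other than 6 and 12 (dashed line), drawn from the 1st to the 99th percentile. Among genes above the reference on at least 1 array (left panel) the chromosome 12 curve lies to the right except at the 1st percentile (−5.29 against −4.15). Among the 177 dim members and 7272 other dim genes (right panel) the curves overlap. Dim genes were selected for lying under the reference on both arrays, so a shift could hardly show there.

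Position was taken from the order of the genes in the reference annotation. The numbers in the probe set identifiers were not used for this, because they run along the plus strand first and start again for the minus strand. Their rank correlation with the annotated position was 0.459 over all 586 members but 0.975 over 279 members of the plus strand and 0.978 over 236 of the minus strand. The strand of the remaining 71 was not matched. Genes of both strands shared the shift, with a median of 0.57 over 195 genes above the reference on the plus strand and of 0.72 over 164 on the minus strand.

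Split into 10 blocks of neighboring members above the reference, the chromosome showed a positive median in every block. From the start, the first 3 blocks had medians of 0.70, 0.69 and 0.60. The block from *Srp54c* to *Nin*, which contains *Foxa1* and *Pax9*, had the highest median of 0.998, and 20 of its 41 genes were at least 2-fold higher. The next 3 blocks, from *Tmx1* to *Snw1*, had medians of 0.65, 0.59 and 0.54. The lowest medians were 0.50 in the block from *Gm16381* to *Btbd7* and 0.45 in the block from *Cox8c* to *Gm266*, and the last block, from *Mark3* to *Macc1*, had a median of 0.73. The block from *Gm16381* opens with predicted genes, and that from *Cox8c* holds serpin genes near the reference. With serpin and predicted genes left out, the lowest block median was 0.57. Across a window of 21 genes moved along the chromosome 1 gene at a time, the running median was above 0 at all 389 positions. It was lowest at 0.28 around *Zbtb42* (from *Klc1* to *Crip2*) and highest at 1.24 around *Mpp5*, and at both of these places 14 of the 21 genes were higher on the aged array. Over all windows, the number of higher genes ran from 12 of 21, as around *Ddx1* and *Taf1b*, to 20, as around *Dhrs7*.

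**Figure D3:**
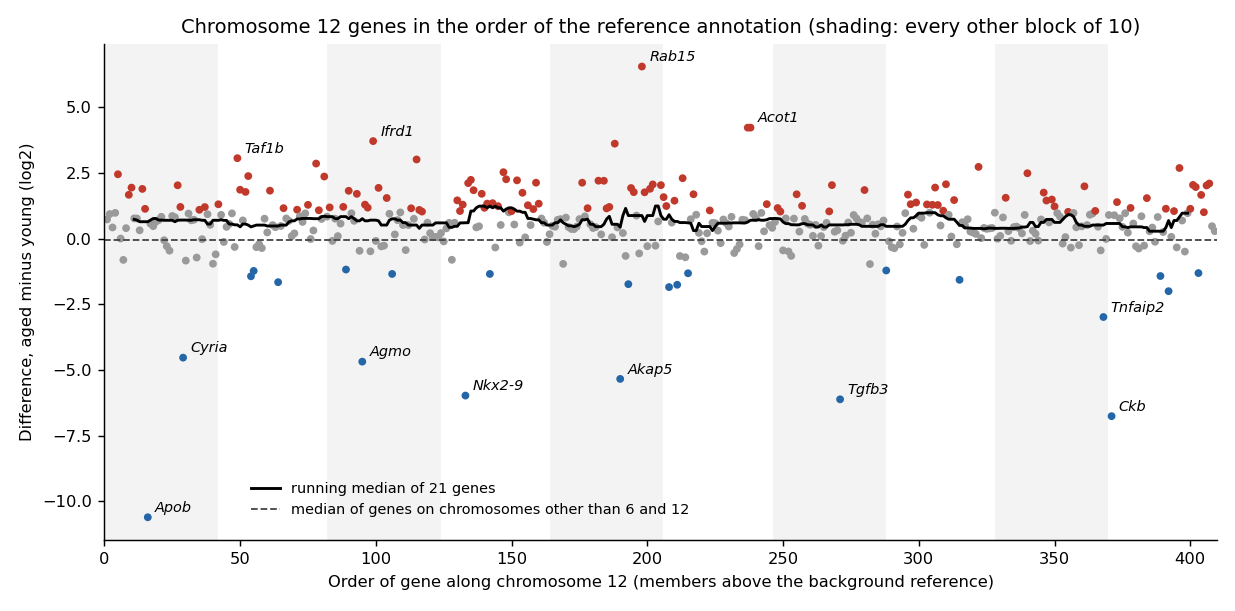
Difference between the arrays (aged minus young, log2) of the 409 members above the reference, in their order along chromosome 12. Red points are at least 2-fold higher on the aged array, blue points at least 2-fold lower and gray points less than 2-fold apart. The running median of 21 genes (black line) stays above 0 from end to end, between 0.28 and 1.24, while single genes such as *Apob*, *Ckb* and *Rab15* lie far from their neighbors.

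A gene and its next neighbor were hardly more alike in the size of their difference than the chromosome as a whole. Over the 408 adjacent pairs, Pearson's r was 0.03 and Spearman's ρ was 0.08, and the rank of position against the difference gave an r of 0.01. These values describe 2 arrays, and neighbors share the arrays and any probe effects. Runs were counted among members above the reference, and those under it were passed over. The longest run of genes higher on the aged array had 20 members and contained *Six4* and *Hif1a*. It went from *Timm9*, a chaperone gene of the mitochondrial intermembrane space, to *Mthfd1*, a gene of folate metabolism. The second had 13, from *Ccdc88c* to *Btbd7*, and the third 11, from *Tmem18* to *Cog5*. The longest run without a higher gene had 5 members and lay from *Kidins220* to *Sox11*.

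The largest difference in the direction of the shift was found as follows in each block. In the first it was the dystrobrevin gene *Dtnb* (10.44 on the young array against 12.89 on the aged array), whose product belongs to the dystrophin complex. In the second it was *Taf1b*, a subunit of the factor that brings RNA polymerase I to ribosomal DNA, with 7.999 and 11.06. In the third it was the transcriptional coregulator *Ifrd1*, with 9.08 and 12.79. The signals of these genes were between 5.45-fold (*Dtnb*) and 13.1-fold (*Ifrd1*) higher on the aged array. In the fourth block it was *Fkbp3*, a nuclear prolyl isomerase, with 11.92 and 14.45, and in the fifth *Rab15*, with 5.52 and 12.06. In the sixth it was *Acot1*, with *Acot2* at the same difference of 4.22, and in the seventh *Jdp2*, a repressor of AP-1, with 5.69 and 7.72. *Rin3* (6.12 and 8.85), an activator of endosomal Rab GTPases, *Clmn* (9.27 and 11.76), a membrane protein with an actin-binding domain, and *Crip1* (8.72 and 11.40), a LIM protein abundant in the intestine, led the last 3 blocks.

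The largest difference on the chromosome in the direction of the shift belonged to *Rab15*, a GTPase of the recycling endosome. Its signal was 5.52 on the young array, just above the reference of 5.36, and 12.06 on the aged array, a difference of 6.55 (93.4-fold). It was followed by *Acot1*, a cytosolic thioesterase that releases fatty acids from coenzyme A (8.17 and 12.39), and *Acot2*, its mitochondrial counterpart (9.55 and 13.77). Both differed by 4.22. These genes lie side by side and are close copies of each other, so that probes of one may bind RNA of the other, and their values are not independent of each other. *Sgpp1*, which encodes a phosphatase of sphingosine 1-phosphate, had 8.52 and 12.13 (12.2-fold). *Prkar2b*, a regulatory subunit of protein kinase A, had 8.66 and 11.51 (7.22-fold). The other members among the 12 largest differences were *Ifrd1*, *Taf1b*, *Egln3*, *Rin3*, *Crip1*, *Fkbp3* and *Clmn*, between 2.49 and 3.71. All 12 were above the reference on both arrays.

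The genes that ran against the shift included the largest differences of the chromosome in either direction. *Apob* encodes the protein that forms the backbone of chylomicrons and very low density lipoproteins, known from liver and intestine. Its signal was 15.41 on the young array against 4.80 on the aged array, where it was under the reference, and it was therefore at least 934-fold lower. *Ckb*, the brain-type creatine kinase, was 13.06 and 6.30, a difference of −6.76, and stayed above the reference. *Tgfb3*, a ligand of the TGF-β receptors, was 10.96 and 4.84 (at least 42.8-fold lower). *Akap5*, which anchors protein kinase A at the membrane, was 10.50 and 5.16 (at least 31.2-fold lower). *Nkx2-9*, a homeobox gene of the ventral neural tube in the embryo, was 9.53 and 3.55 (at least 15.9-fold lower). For each of these the signal on the young array was far above the reference.

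Next in size came *Agmo*, which encodes an enzyme that cleaves ether lipids, with 10.85 and 6.17 (25.7-fold lower), and *Cyria*, whose product binds the GTPase Rac1, with 8.64 and 4.11 (at least 8.58-fold lower). *Tnfaip2*, a gene induced by tumor necrosis factor, had 7.35 and 4.37 (at least 3.52-fold lower). After these 8 genes the differences were smaller. *Btbd6*, an adaptor of the ubiquitin ligase cullin 3, had 6.40 and 4.40 (at least 1.82-fold lower). *Arg2*, the mitochondrial arginase, had 9.13 and 7.28 (3.60-fold lower). *Rdh12*, a retinal reductase, had 7.50 and 5.74 (3.38-fold lower). *Hspa2*, a heat shock protein of the Hsp70 family that is abundant in testis, had 9.78 and 8.04 (3.33-fold lower). These 12 were the smallest differences among members whose brighter array was at least 1 log2 unit above the reference.

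The other 11 genes at least 2-fold lower by their measured signals were *Pxdn*, *Dglucy*, *Kidins220*, *Jag2*, *Fbxo33*, *Gm1818*, *Actn1*, *Ptprn2*, *Id2*, *Gm16381* and *Agr3*, with differences between −1.66 and −1.18. For *Jag2*, *Gm16381*, *Pxdn* and *Agr3*, and for *Btbd6* above, the lower bound was under 2-fold. Of these 11, *Pxdn*, *Actn1*, *Ptprn2*, *Id2*, *Gm1818* and *Gm16381* are not reached by the rule by which genes are named here and were chosen after their values were seen. Their functions had little in common. *Pxdn* cross-links collagen IV, *Actn1* bundles actin, *Ptprn2* lies in the membrane of secretory granules, *Id2* inhibits helix-loop-helix transcription factors, and *Dglucy* breaks down D-glutamate. Of all 23, 11 were under the reference on the aged array, and their size is given as a lower bound.

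**Figure D4:**
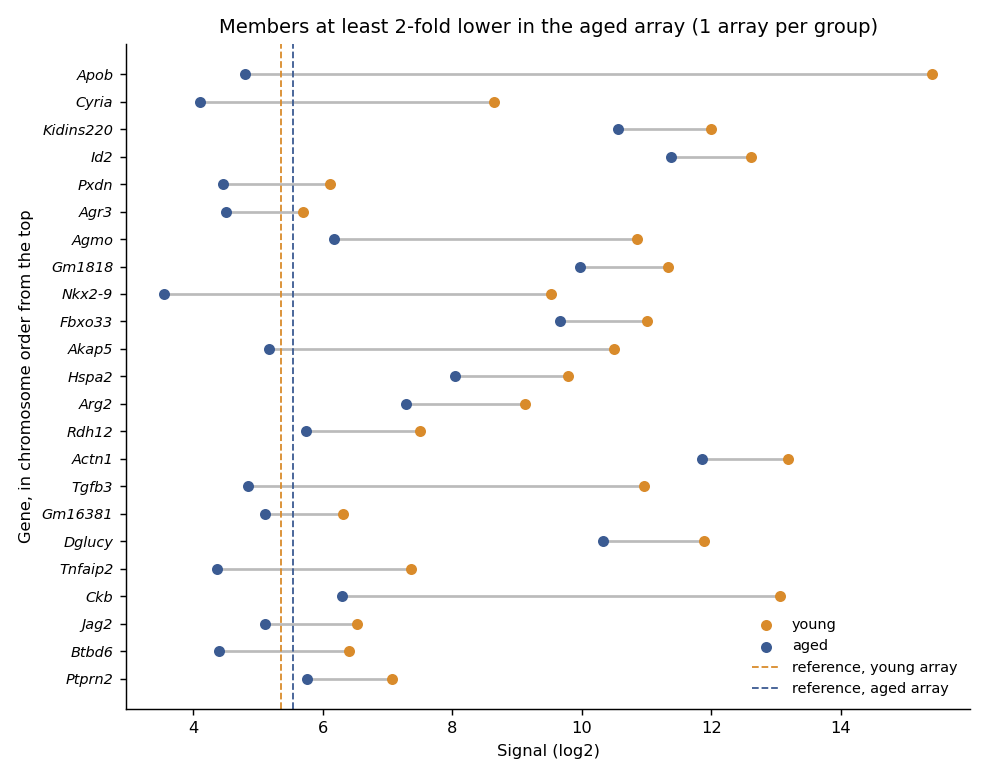
Signals (log2) of the 23 members at least 2-fold lower on the aged array, in chromosome order from the top, on the young array (orange) and the aged array (blue), with 1 array per group. Dashed lines mark the background references of 5.36 and 5.54. 11 of the genes lie under the reference on the aged array, *Apob* being the one with the greatest distance between its points.

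These lower genes lay scattered among genes that were higher. Each of the 10 blocks held between 1 and 4 of them. Neighbors are counted here among members above the reference only. Of these members 77.5% were higher, so a higher neighbor is the usual case for any of them. Of the 23, 21 had a gene higher on the aged array on at least 1 side and 12 on both sides. Of the 117 genes at least 2-fold higher, 73 had one on both sides. The median of the 4 nearest genes was above 0 for 22 of the 23 and for 105 of the 117. The exception among the 23 was *Id2*, where it was −0.27. *Id2* and its neighbor *Kidins220* were the 1 adjacent pair in which both were at least 2-fold lower. The genes directly beside the 23 had a median difference of 0.61, close to that of the chromosome, and those beside the 117 genes at least 2-fold higher had 0.74. The following neighbors were picked for their place beside a lower gene. *Apob* lay between *Klhl29* (1.13) and *Ldah* (0.56), a hydrolase of lipid droplets. *Ckb* lay between the kinase gene *Mark3* (0.90) and the tRNA methyltransferase gene *Trmt61a* (0.89). *Ptprn2* lay between the condensin gene *Ncapg2* (1.96) and *Rapgef5* (1.66).

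At some places neighboring members, several of them of the same family, differed in direction. *Nkx2-9* lay beside *Pax9*, a paired box gene of the foregut and teeth, which had 6.19 on the young array against 8.30 on the aged array. On the other side of *Nkx2-9* lay *Nkx2-1*, a homeobox gene of lung and thyroid. *Nkx2-1* was under the reference on both arrays (3.80 and 3.87), and *Mbip* beyond it differed by 1.29. *Agr2*, a disulfide isomerase that folds mucins in the endoplasmic reticulum, was 7.32 and 9.14 (3.52-fold higher). Its neighbor *Agr3* was 5.69 and 4.51, which is at least 1.11-fold lower. *Rdh11* was 11.65 and 13.09 (2.71-fold higher), beside the lower *Rdh12*. *Crip1* was 6.43-fold higher, beside *Crip2*, which differed by −0.34. In these 4 places, members of opposite sign stood next to each other.

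In the thioesterase cluster, *Acot6*, which follows *Acot5*, was 4.85 and 5.79 (at least 1.34-fold higher). *Acot3*, *Acot4* and *Acot5* were under the reference on both arrays, although *Acot4* had 3.81 and 5.53, the latter just short of it. The large differences of the cluster were those of *Acot2* and *Acot1*, its first members. In the remaining pairs, *Klhdc2*, a substrate receptor of a ubiquitin ligase, was 2.41-fold higher and *Klhdc1* differed by 0.04. *Six4* was 2.23-fold higher, and *Six6*, a homeobox gene of the eye, was under the reference on both arrays. The anion exchangers *Slc26a3* and *Slc26a4* were also under it on both.

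Functional groups of members were then examined, in lists of chromosome 12 genes written with earlier results of these data known. Read against the whole chromosome, with its median of 0.60, most lists had a median close to that of the chromosome. Of its 409 members, 317 (77.5%) were higher on the aged array. By 2-fold or more, 117 (28.6%) were higher and 23 (5.62%) lower. Over all genes above the reference, these shares were 50.1%, 11.3% and 11.8%. The list of cell division, DNA replication and repair was the highest, at 1.09 over 25 genes above the reference. It held 14 genes higher by 2-fold or more and no gene lower by as much. The list of Wnt, Notch and growth factor signaling was the lowest, at 0.28 over 18 genes, with 2 at least 2-fold higher and 4 lower. Neither value is a test of the list.

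**Figure D5:**
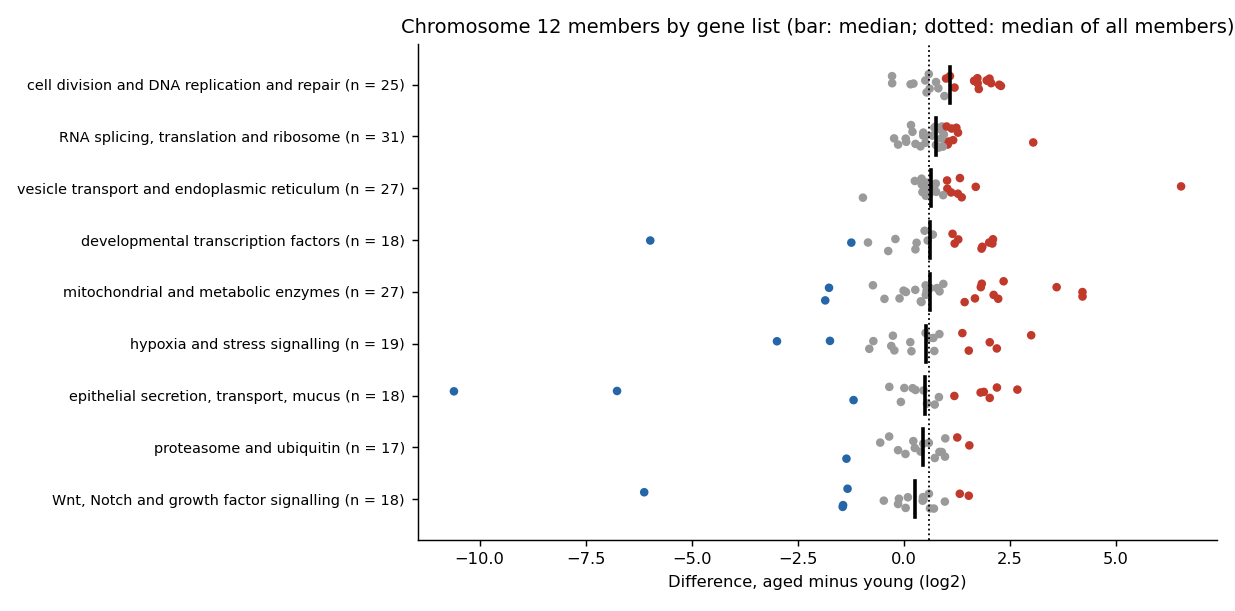
Difference between the arrays (aged minus young, log2) of members in 9 gene lists of chromosome 12 with more than 3 genes above the reference. Each point is a gene (red at least 2-fold higher, blue at least 2-fold lower, gray less than 2-fold apart, spread vertically for legibility), bars are list medians and the dotted line is the median of all 409 members (0.60). List medians run from 0.28 to 1.09.

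Genes of cell division and repair were nearly all higher on the aged array, 23 of 25, against 77.5% of all 409 members. *Fancm*, the translocase of the Fanconi anemia pathway, was 7.48 on the young array against 9.74 on the aged array. *Tdp1*, which removes topoisomerase I from DNA ends, was 10.05 and 12.11, and *Gen1*, which cuts Holliday junctions, was 6.52 and 8.55. Each of these 3 was between 4.07-fold and 4.78-fold higher. *Cdca7l*, whose product binds Myc, was just inside the 2-fold threshold. The 2 genes of the list that were not higher, chosen after their values were seen, were the mismatch repair gene *Mlh3* and the apoptosis gene *Siva1*, both at −0.27. When this list was left out, an alternative added after seeing the data, the median of the chromosome was 0.59.

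Transcription factors of development and differentiation had a median of 0.63 over 18 genes. Higher by 2-fold or more were 8, and 2 were lower, against 28.6% and 5.62% of all 409 members. *Pax9*, *Sp4* and *Sp8* were between 2.02 and 2.11 higher, and *Nkx2-9* was the lowest gene of the list. *Sp8*, a zinc finger gene of limb and brain development, had 5.13, under the reference, on the young array against 7.22 on the aged array, and so at least 3.64-fold higher. *Foxa1*, which opens chromatin in endoderm and was picked after its value was seen, was 13.71 and 15.55. *Id2* was the other lower gene of the list (12.61 and 11.38). The remaining 12 measured genes, including *Nkx2-1* and *Six6*, were under the reference on both arrays.

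Genes of hypoxia and stress signaling were mixed, with a median of 0.52 over 19 genes. Higher by 2-fold or more were 5, and 2 were lower, against 28.6% and 5.62% of all 409 members. *Hif1a* encodes the oxygen-regulated subunit of hypoxia-inducible factor 1, and was 12.55 on the young array against 14.75 on the aged array (4.59-fold). *Egln3* encodes a prolyl hydroxylase that marks this subunit for degradation and is itself a target of the factor, and was 11.18 and 14.19 (8.05-fold). Both were thus higher by more than the median of the chromosome, and *Jdp2* was higher as well. The lower genes were *Tnfaip2* and *Hspa2*. *Hsp90aa1*, the inducible cytosolic Hsp90 and a gene of strong signal on both arrays, was 17.50 and 17.25.

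Genes of epithelial secretion, transport and mucus had a median of 0.51 over 18 genes, with 6 at least 2-fold higher and 3 lower. Over all 409 members, 28.6% were at least 2-fold higher and 5.62% lower. This list held the greatest losses of the chromosome, *Apob* and *Ckb*, together with *Agr3*. Among its higher genes were *Crip1* and *Tmem30b*, a subunit of the enzymes that flip phospholipids across the membrane, with 13.46 for young and 15.66 for aged organoids. *Agr2* was also higher. The enteroendocrine gene *Chga*, which was chosen after its value was seen, was under the reference on both arrays (3.52 and 3.06). The selenoprotein *Gpx2*, the glutathione peroxidase of the gut epithelium, had strong signals on both arrays (17.75 and 17.18), and its difference of −0.57 ran against the shift but was less than 2-fold.

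Genes of RNA splicing, translation and the ribosome shared the shift with few exceptions. Of 31 genes, 29 were higher on the aged array and 8 by 2-fold or more, against 77.5% and 28.6% of all 409 members. No gene of the list was lower by as much, and its median was 0.76. *Taf1b* had the largest difference, followed by the polyadenosine-binding protein gene *Zc3h14* (13.01 and 14.29), *Fcf1*, which acts in the processing of ribosomal RNA (7.07 and 8.31), and *Pnn*, a gene of the spliceosome and of desmosomes (12.77 and 13.94). The ribosomal protein genes *Rps7* (16.88 and 17.63) and *Rps29* (16.22 and 17.22) were higher by 0.76 and 0.998, the latter just outside the 2-fold threshold. The 3 copies of *Srp54*, the signal recognition particle subunit, which were picked after their values were seen, differed by 0.05 to 0.21. They are nearly identical, so their probes cannot be assigned to 1 copy.

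Genes of vesicle transport and the endoplasmic reticulum had a median of 0.65 over 27 genes. Of all 409 members, 77.5% were higher, 28.6% by 2-fold or more, and 5.62% were lower by as much. In this list 26 were higher, 8 by 2-fold or more, and no gene was lower by as much. Apart from *Rab15*, these were modest differences. *Trappc6b*, a subunit of the TRAPP tether, was 11.08 and 12.78 (3.25-fold), *Sel1l*, which holds the ligase for misfolded proteins of the endoplasmic reticulum, was 11.82 and 13.19 (2.59-fold), and *Mia2*, which acts at the exit sites of the endoplasmic reticulum, was 14.18 and 15.51 (2.51-fold). The exception was *Hpcal1*, a calcium sensor gene named after its value was seen, at −0.96. In contrast to *Rab15*, the trafficking GTPase gene *Rab10* at the start of the chromosome differed by 0.73.

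Mitochondrial and metabolic enzymes had a median of 0.63 over 27 genes, with 10 at least 2-fold higher and 2 (*Arg2* and *Rdh12*) lower. The shares over all 409 members were 28.6% and 5.62%. *Acot1*, *Acot2*, *Sgpp1* and *Nampt* had the largest differences. *Nampt*, the rate-limiting enzyme of NAD salvage, was 9.23 on the young array against 11.59 on the aged array (5.13-fold). *Sptlc2*, a subunit of the enzyme that starts sphingolipid synthesis, was 15.96 and 16.50, and *Atp5mpl*, a small subunit of the mitochondrial ATP synthase that is in none of the lists, was 15.58 and 16.15. These last differences, 0.54 and 0.57, were near the median of the chromosome. Genes of the proteasome and of ubiquitin transfer had a median of 0.47 over 17 genes. The deubiquitinase *Otub2* (2.93-fold) and *Klhdc2* were at least 2-fold higher, *Btbd7* was 1.98-fold higher, and the F-box gene *Fbxo33* was 2.54-fold lower. *Arel1*, a ubiquitin ligase gene with strong signals, differed by 0.26.

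Genes of Wnt, Notch and growth factor signaling made up the list in which the smallest share of genes followed the shift, 11 of 18. Over all 409 members this share was 77.5%. *Akt1*, the kinase downstream of growth factor receptors, was 12.13 on the young array against 13.67 on the aged array (2.90-fold higher). *Tgfb3* had the greatest loss. *Jag2*, a ligand of Notch, was 6.53 and 5.10 (at least 1.99-fold lower), and *Kidins220*, a scaffold of neurotrophin receptors, was 11.996 and 10.56 (2.71-fold lower). The fourth lower gene was *Actn1*, which is a cytoskeletal gene more than a signaling gene.

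Some regions of the chromosome were largely silent. In the serpin cluster, which encodes secreted protease inhibitors of the liver, 3 of 18 measured genes were above the reference, *Serpina3i*, *Serpina6* and *Serpina11*, with differences between 0.20 and 0.45. *Dlk1*, *Dio3* and *Begain* of the imprinted region were under the reference on both arrays. No statement on the shift can be made for such genes, since their signals lay within background. *Laptm4a*, a lysosomal gene of strong signal on both arrays (16.39 and 16.09), differed by −0.29.

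The shift was present at each level of signal, and it was smallest among the dimmest members. In 5 groups of rising mean signal the medians were 0.39, 0.61, 0.74, 0.61 and 0.73, and the gaps to genes of the same signal on the chromosomes other than 6 and 12 were 0.41, 0.58, 0.81, 0.72 and 0.78. Of the 23 lower genes, 10 were in the dimmest group and 2 in the brightest. The mean includes the aged signal, so a large loss itself moves a gene toward the dimmer groups. Lower genes were not counted by level on the other chromosomes, so these counts do not tie the losses to dim genes. Members were also split by the length of the gene. The medians were 0.44 and 0.52 in the 2 groups of shorter genes (up to 11.4 kb and from there to 29.5 kb) and 0.75 and 0.74 in the 2 groups of longer genes (up to 73.5 kb and beyond). The gaps to genes of the same length elsewhere were 0.44, 0.55, 0.80 and 0.82. Longer genes of the chromosome thus showed more of the shift than shorter genes, as a description across genes of these 2 arrays.

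Promoters were available in RefSeq for 515 of the 586 members, and for 359 of the 409 above the reference. The median number of CG dinucleotides in the window of 300 bases was 24.5 in members at least 2-fold higher, 23 in those less than 2-fold apart and 21 in those at least 2-fold lower, against 9 in members under the reference on both arrays and 7 in all 27025 promoters. For genes above the reference on chromosomes other than 6 and 12, the medians were 19 (higher), 21 (less than 2-fold apart) and 16 (lower). In each of these groups, on chromosome 12 and elsewhere, the median was thus above that of all promoters. The lower members had only 20 promoters, with a 25th percentile of 8. By CG content in 3 groups, the median differences were 0.53 (0 to 17), 0.58 (18 to 27) and 0.77 (28 to 63), and the numbers of genes at least 2-fold lower were 8 of 118, 10 of 120 and 2 of 121. Such counts were not made for the other chromosomes, where lower genes also had fewer CG dinucleotides (median 16 against 21). The gaps to genes of the other chromosomes with the same CG content were 0.62, 0.62 and 0.77.

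The windows were searched for the core of the hypoxia response element (ACGTG), for the E-box, spelled CACGTG, which contains it, and for the AP-1 site, spelled TGACTCA, each on both strands. ACGTG was found in 21.4% of the 359 promoters of members above the reference, in 25.9% of those of the chromosomes other than 6 and 12 and in 19.7% of all promoters. CACGTG was in 8.91%, 10.4% and 7.24%, and TGACTCA in 3.62%, 3.78% and 5.17%. None of these letters was more frequent on chromosome 12 than among expressed genes elsewhere. Of the promoters printed above, those of *Egln3* and *Hif1a* contain ACGTG, and that of *Hif1a* contains CACGTG. A match of letters is not a binding site.

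The counts of genes 2-fold apart depend on a threshold, and the genes next to it were as follows. On the higher side, *Cdca7l* was just inside (10.80 and 11.80) and *Rps29* just outside. On the lower side, *Agr3* was just inside (−1.18) and *Noxred1*, a predicted oxidoreductase gene, just outside (−0.97). At the limit of detection, *Tcl1b4* (5.24 and 5.54) was just above the reference of the aged array and *Fam228b* (5.36 and 5.17) just under that of the young array. The scatter of the receptor genes, with an SD of 0.51, is large enough for a single dim gene near the threshold to fall on either side of it.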

How the data were processed

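Total RNA of young and of aged gastric organoids was hybridized by the authors to 1 Clariom S array per group. Per the submitters' processing notes, the authors applied RMA in Affymetrix Power Tools (no versions named) and deposited 1 signal for each probe set and array, on a log scale taken here as log2. RMA brings the arrays to 1 distribution, so a shift common to all genes would be removed. The base of the logarithm and the build of the array design are not given in the sources used here, and base 2, usual for RMA, was assumed.

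Probe sets without a single gene symbol were left out, and the sets of 55 genes with several were averaged, none of them on chromosome 12. Gene order, strand, length and promoters came from RefSeq (GRCm38.p6). Folds were computed for genes at or above the background reference on at least 1 array, as a lower bound where the dimmer array was under it. With 1 array per group no p-value or standard error could be computed, and the precision is limited by this number.

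Named were, among members at least 1 log2 unit above the reference, the 12 largest and 12 smallest differences, the 8 of strongest signal, the extremes of each block and up to 4 genes per list, as well as neighboring paralogs and genes next to a threshold. A single named gene is not reported here. The members and the 11 lists were chosen with earlier results of these data known. Alternatives concerned the reference, fold threshold, scaling, probe sets, predicted genes and gene order. The steps were tested on simulated arrays. Python 3.11.15, numpy 2.4.6, pandas 2.3.3, scipy 1.17.1 and matplotlib 3.10.9 were used.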

Additional observations from a re-analysis of the deposited data

Results flagged for a closer look

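The 89 probe sets of chromosome 12 that do not carry exactly 1 gene symbol were not members, and their signals also tended to be higher on the aged array. Of the 59 above the reference, 39 (66.1%) were higher, 10 (16.9%) at least 2-fold, and 5 (8.47%) were at least 2-fold lower. Among 1247 unnamed probe sets on chromosomes other than 6 and 12, these shares were 48.8%, 6.82% and 9.70%, so the share of lower ones was near that elsewhere. Their median difference was 0.17 (25th to 75th percentile −0.25 to 0.81), which is smaller than that of the named genes. Those on the other chromosomes had a median of −0.01. This difference was not tested, and what these probe sets measure was not examined.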

How the results depend on the processing

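With 1 array per group, no array could be left out and no paired analysis was possible because there is no second pair. Alternatives were set against limits around the main values, a 95% binomial interval over genes (median difference 0.52 to 0.71, share higher 73.2% to 81.3%) and a factor of 1.5 for counts. Genes are not independent replicates and the alternatives share most of them, so these limits are a yardstick and no test. Of 66 such comparisons, 56 stayed within these limits, 10 moved beyond them and 0 reversed. With dim members included (all 586), the median difference was 0.42, the share higher 71.2% and the gap to the median of all other chromosomes 0.39, against 0.62 in the main analysis. With members required to be above the reference on both arrays, 12 instead of 23 were at least 2-fold lower, since 11 of the 23 were under it on the aged array. A 1.5-fold threshold gave 211 higher and 35 lower members and a 3-fold threshold 57 and 13. Among the 208 members in none of the gene lists, an alternative chosen after seeing the data, 55 were at least 2-fold higher and 9 lower, with a median of 0.59. The lowest block median ran from 0.23 to 0.57 over 12 alternatives, among them 20 blocks and the order of probe set numbers. The limits set for it were wide (0.20 to 0.90), so all of these alternatives counted as within them. Quantile normalization and centering of the arrays moved the median of all genes by 0.004 and 0.077, and no named gene by more than 0.09.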
